A study of Mus musculus with 36 samples.

Results

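Insulin-like growth factors were examined in the hippocampus of CK-p25 mice through 9 genes: the ligands Igf1 and Igf2, the receptor Igf1r, and the binding proteins Igfbp2, Igfbp3, Igfbp4, Igfbp5, Igfbp6 and Igfbp7. They were found by gene symbol among 37991 genes of an RNA-seq count table, and all 9 were matched and passed the filter on low counts, as did 14457 genes in all. The list was chosen by the family's known differences between CKp25 and CK in counts of these same libraries, so those differences are given as a description with no test. Changes between times within CKp25 use part of the same values. Their p-values are therefore not independent of the choice and are no separate support.

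Female double-transgenic CK-p25 mice, labelled CKp25, were collected 2 or 6 weeks after p25 was induced, and control littermates, labelled CK, were collected at the same times. All are labelled as 3 months old. In the CK-p25 model as generally described, a CaMKII promoter drives the induction of p25, a shortened protein that activates the kinase Cdk5, in excitatory neurons of the forebrain. The labels do not spell out which alleles the CK littermates carry. Flash-frozen hippocampus gave total RNA that was depleted of ribosomal RNA. Each of the 4 groups holds 3 libraries, and the labels do not say that the library numbers are animals, so every p-value measures the spread between libraries, and this spread may be technical. A batch common to all libraries of a time cannot be told apart from the time since induction.

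Igf1 and Igf2 are secreted proteins that bind Igf1r, a receptor tyrosine kinase that signals through insulin receptor substrates, PI3-kinase and Akt. The binding proteins hold the ligands outside the cell, lengthen their life and either block or deliver them, and proteases that cut the binding proteins set the ligands free. In the brain Igf1 is made by neurons and by activated microglia, and Igf2 is made mostly by the choroid plexus, which secretes cerebrospinal fluid, and by the meninges.

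The libraries held 5029996 to 6450140 gene counts each, and levels are CPM, a gene's count relative to its library's size after scaling by the trimmed mean of M-values. Genes of hippocampal neurons were present, with the exception of the pyramidal cell gene Pou3f1, which was at 0 in every library. Summed over 12 choroid plexus genes, the level split the libraries into 2 sets, with 5 libraries at 18.8 to 40.1 CPM and 7 libraries at 356 to 2557 CPM, and each group held libraries of both sets. The high set was CKp25_2wk_4518, CKp25_2wk_4894, CK_2wk_4520, CKp25_6wk_3937, CKp25_6wk_4008, CK_6wk_3936 and CK_6wk_4009. CKp25_2wk_4518 and CK_2wk_4520 also stood apart in the share of reads with several alignments, at 6.81% and 7.15% against 12.2 to 14.3% in the other libraries at 2 weeks. At 6 weeks that share was 11.5 to 13.9% in CKp25 and 6.86 to 9.52% in CK. Those ranges did not overlap. At 6 weeks the share therefore cannot be told apart from genotype, unless it is assumed to act alike in all groups.

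Igfbp2 and Igfbp5 are neighbours in the genome, and the stretches before their starts are shown because the gap between genotypes was widest at 2 weeks for Igfbp2 and at 6 weeks for Igfbp5. The window of Igfbp4 is shown beside them as an example with a TATA box. Each sequence is the 250 bases before the annotated start in RefSeq, build GRCm38.p6, written 5′ to 3′ on the gene's own strand, with TATA-type motifs in capitals. The windows are chr1:72874866-72875115 on the minus strand for Igfbp5, chr1:72824230-72824479 on the plus strand for Igfbp2 and chr11:99040994-99041243 on the plus strand for Igfbp4.
Igfbp5: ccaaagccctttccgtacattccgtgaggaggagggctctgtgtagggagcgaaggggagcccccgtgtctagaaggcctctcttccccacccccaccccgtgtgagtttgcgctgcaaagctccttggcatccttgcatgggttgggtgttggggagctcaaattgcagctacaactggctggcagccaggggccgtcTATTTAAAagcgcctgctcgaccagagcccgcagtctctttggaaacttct
Igfbp2: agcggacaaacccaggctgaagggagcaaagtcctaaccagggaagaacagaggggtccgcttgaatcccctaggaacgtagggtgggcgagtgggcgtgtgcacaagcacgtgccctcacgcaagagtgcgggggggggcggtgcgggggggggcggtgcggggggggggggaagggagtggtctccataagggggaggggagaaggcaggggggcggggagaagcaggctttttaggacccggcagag
Igfbp4: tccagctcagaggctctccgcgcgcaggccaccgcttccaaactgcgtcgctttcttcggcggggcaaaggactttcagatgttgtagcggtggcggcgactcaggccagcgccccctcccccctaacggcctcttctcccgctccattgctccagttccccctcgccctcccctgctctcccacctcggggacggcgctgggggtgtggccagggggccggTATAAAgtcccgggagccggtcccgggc

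The Igfbp5 window held TATTTAAA starting 51 bases before the start, a motif present in 1.71% of 32851 RefSeq windows of the same length. The Igfbp4 window held the TATA box TATAAA 28 bases before the start, and 12.4% of all windows held that motif. The first of the 2 annotated Igfbp2 windows held neither. RefSeq lists 13 windows for the 9 genes, 4 of them for Igf2. Across these, TATAAA also lay 148 bases before the start of Igfbp6, on the opposite strand. No member window held TATATATA (0.737% of all windows), the STAT motif TTCNNNGAA (7.02%), the FoxO motif GTAAACA (3.17%) or the Otx motif TAATCC (6.25%). Both strands were searched and no match overlapped another. The motifs and printed windows were picked after the sequences were seen, so the shares do not measure how unusual a match is. A match describes letters and not a bound site, and its absence says only that the letters are not in these windows.

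**Figure D1:**
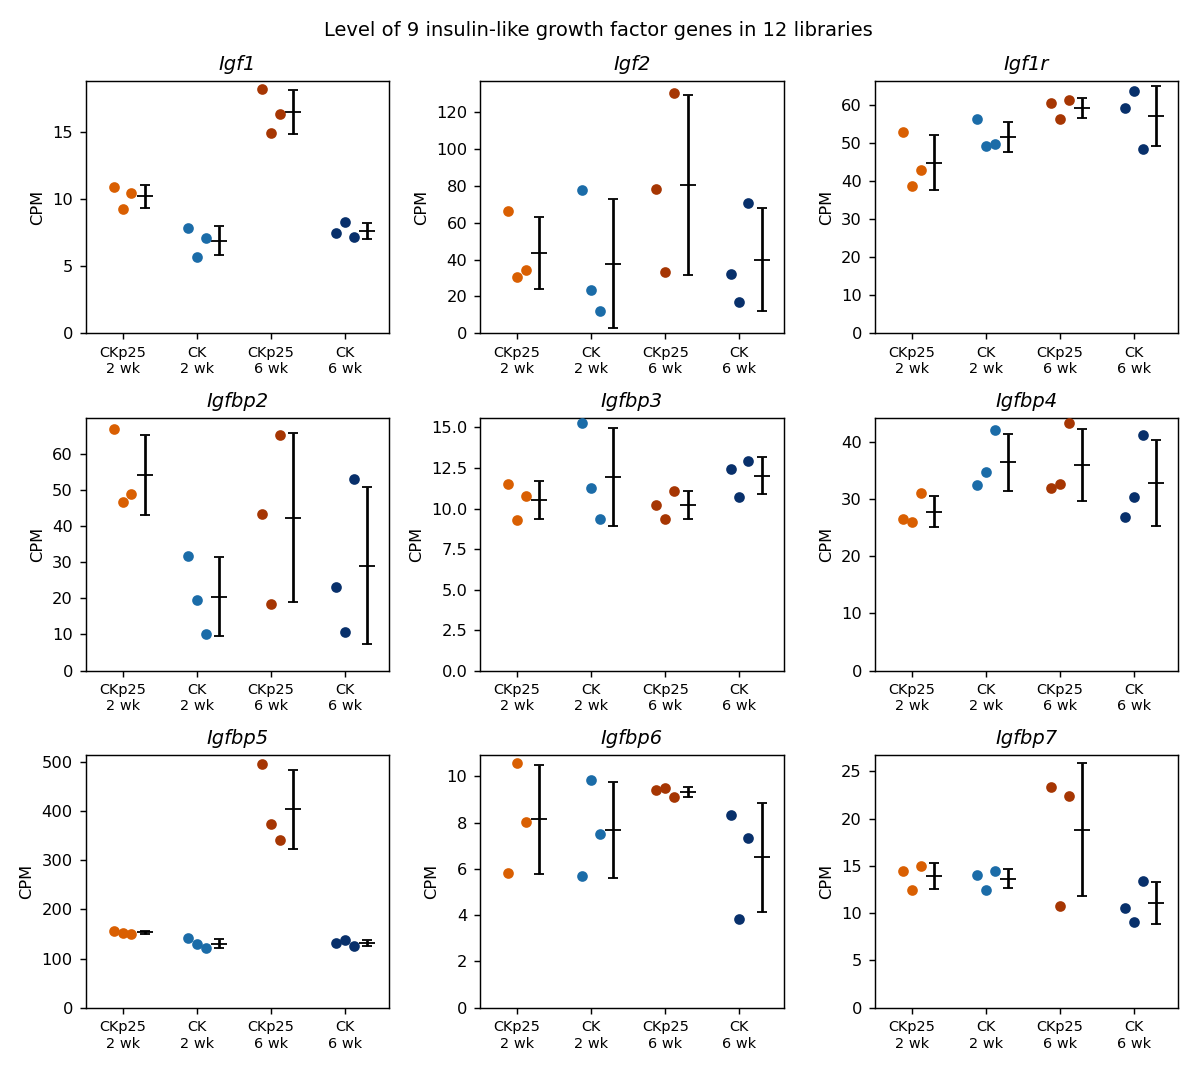
Level (CPM, linear axes starting at 0) of the 9 genes in each library, with the mean and SD of 3 libraries beside the points. Igfbp5 at 6 weeks lay at 341 to 495 CPM in CKp25 and 126 to 139 CPM in CK, and Igf2 and Igfbp2 varied widely within groups.

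Igf1, the ligand through which growth hormone acts in many tissues, was higher in CKp25 at both times. At 2 weeks its level was 10.9, 9.27 and 10.5 CPM in CKp25, against 7.88, 5.73 and 7.11 CPM in CK. At 6 weeks it was 18.2, 15.0 and 16.4 CPM in CKp25, against 7.53, 8.30 and 7.16 CPM in CK. The ranges did not overlap at either time. The fitted log2 fold change of CKp25 against CK was 0.56 ± 0.17 (SE) at 2 weeks and 1.10 ± 0.16 at 6 weeks. These levels rest on 28 to 93 reads a library. Igf1 was also higher at 6 than at 2 weeks within CKp25, by 0.68 ± 0.15 on the log2 scale (adjusted p = 0.00722 by edgeR's quasi-likelihood test). That call held in all 12 fits made without a library each, at 0.61 to 0.73, but it rests on CKp25 values used in choosing the family. The CKp25 effect at 6 weeks minus that at 2 weeks was 0.54 ± 0.23. In order of mean level the groups were CKp25 at 6 weeks, CKp25 at 2 weeks, CK at 6 weeks and CK at 2 weeks, and the ranges of both CK groups overlapped.

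The sum of 12 microglia genes was 1077 to 1470 CPM in CKp25 and 271 to 292 CPM in CK at 2 weeks, and 1333 to 1869 CPM in CKp25 and 250 to 284 CPM in CK at 6 weeks. All 12 were called higher at both times, and none was at 0. Of the activated microglia genes, 10 of 10 were called higher at both times. They summed to 1313 to 1774 CPM in CKp25 and 305 to 327 CPM in CK at 2 weeks. Their 6-week sums were 1377 to 2027 CPM in CKp25 and 279 to 391 CPM in CK. Border macrophage genes summed to 11.8 to 18.2 CPM in CKp25 and 6.91 to 16.3 CPM in CK at 2 weeks, where the ranges overlapped and 0 of 4 tested were called. At 6 weeks they summed to 20.9 to 38.6 CPM in CKp25 and 6.68 to 11.6 CPM in CK, and 4 of 4 tested were called higher. Astrocyte genes summed to 7926 to 8272 CPM in CKp25 and 5941 to 6401 CPM in CK at 2 weeks, with 5 of 10 called higher. Their 6-week sums were 10687 to 13267 CPM in CKp25 and 6080 to 6649 CPM in CK, with 9 of 10 called higher. In each of the 4 groups the libraries stood in the same order for Igf1 as for the astrocyte sum, which was so for 0.304% of all genes tested. The Igf1 order was that of the microglia sum in 0 of 4 groups and that of the activated microglia sum in 2 of 4. The astrocyte order was singled out from 12 marker lists after the values were seen. The part of these cells in the Igf1 level was not tested. In tissue RNA, more cells of a type and more RNA per cell cannot be told apart.

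Igf2, the second ligand, varied more within groups than between them. At 2 weeks its level was 66.0, 30.4 and 34.3 CPM in CKp25, against 77.6, 23.5 and 12.4 CPM in CK. Its levels at 6 weeks were 78.0, 33.0 and 130 CPM in CKp25, against 32.1, 17.0 and 70.7 CPM in CK. The groups overlapped at both times, and the fitted log2 fold change was 0.18 ± 0.57 at 2 weeks and 0.98 ± 0.55 at 6 weeks. Single libraries decided these values. The 2-week value was 1.29 without CK_2wk_4520 and -0.26 without CKp25_2wk_4518, and the 6-week value was 1.70 without CK_6wk_4009 and 0.43 without CKp25_6wk_4008. With the share of reads with several alignments as a covariate, the 6-week value was 2.08 ± 0.54 and the 2-week value 0.17 ± 0.46, so that their difference was 1.91 ± 0.71, where it was 0.80 without the covariate. Within CKp25, Igf2 was then 1.44 ± 0.45 higher at 6 than at 2 weeks (adjusted p = 0.0409 by edgeR's quasi-likelihood test), a change that was not called without the covariate. That p-value rests on CKp25 values used in choosing the family and is no separate support. The share did not overlap between genotypes at 6 weeks, so it cannot be told apart from genotype there.

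Igf1r, the receptor of both ligands, overlapped between genotypes. Its level at 2 weeks was 52.8, 38.6 and 43.0 CPM in CKp25, against 56.2, 49.1 and 49.6 CPM in CK. The 6-week levels were 60.4, 56.2 and 61.1 CPM in CKp25, against 59.2, 63.5 and 48.4 CPM in CK. The fitted log2 fold change was -0.20 ± 0.12 at 2 weeks and 0.06 ± 0.12 at 6 weeks. The 2-week value was -0.34 ± 0.12 without CKp25_2wk_4518, the CKp25 library that lay among those of CK. Within CKp25, Igf1r was higher at 6 than at 2 weeks by 0.40 ± 0.12 on the log2 scale (adjusted p = 0.0344 by edgeR's quasi-likelihood test), with no overlap of the libraries. That p-value rests on CKp25 values used in choosing the family and is no separate support. Within CK the change was 0.14 ± 0.12. The CKp25 effect at 6 weeks minus that at 2 weeks was 0.26 ± 0.16. The call within CKp25 was lost without CKp25_2wk_4890 (0.30), CKp25_2wk_4894 (0.34), CKp25_6wk_3937 (0.38) or CKp25_6wk_4008 (0.37).

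Igfbp5, a binding protein that also attaches to extracellular matrix, had the widest gap between genotypes among the 9 genes at 6 weeks. At 2 weeks its level was 157, 153 and 151 CPM in CKp25, against 141.0, 129 and 122 CPM in CK. By 6 weeks Igfbp5 stood at 495, 375 and 341 CPM in CKp25, against 131, 139 and 126 CPM in CK. The libraries did not overlap at either time. The means were 154 ± 3.09 CPM in CKp25 and 131 ± 9.74 CPM in CK at 2 weeks, and 404 ± 80.8 CPM in CKp25 and 132 ± 6.56 CPM in CK at 6 weeks (SD, n = 3 each). The fitted log2 fold change was 0.23 ± 0.11 at 2 weeks and 1.61 ± 0.11 at 6 weeks, the second of these a ratio of 3.06.

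The CKp25 effect on Igfbp5 was larger at 6 than at 2 weeks by 1.38 ± 0.15 on the log2 scale, and by 1.21 to 1.49 in the 12 fits that left out a library each. This difference is built from the same values by which the family was chosen and is given as a description with no test. Within CKp25, Igfbp5 was higher at 6 than at 2 weeks by 1.39 ± 0.11 (adjusted p = 2.56e-06 by edgeR's quasi-likelihood test). The CKp25 libraries had been looked at when the genes were chosen, so the changes between times within CKp25 are not independent of that choice.

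Genes of several other cell types, of blood vessels, the brain surface and glia, were also higher in CKp25 at 6 weeks. Mural cell genes were called higher in 8 of 10 cases, with sums of 333 to 443 CPM in CKp25 and 235 to 280 CPM in CK. Endothelial genes were called higher in 10 of 10 cases, at 320 to 396 CPM in CKp25 and 229 to 261 CPM in CK. Meningeal fibroblast genes were called higher in 11 of 12 cases, at 175 to 336 CPM in CKp25 and 76.5 to 119 CPM in CK. Astrocyte genes were called higher in 9 of 10 cases, as given with Igf1. Oligodendrocyte genes were called higher in 8 of 10 cases, at 4398 to 5374 CPM in CKp25 and 2991 to 3761 CPM in CK. Inhibitory interneuron genes were called higher in 2 of 10 cases. Of all genes tested, 18.1% were called higher at 6 weeks. No marker of these 6 lists was at 0, and their part in the Igfbp5 level was not tested.

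Igfbp2, a binding protein found at high levels in cerebrospinal fluid, stood apart at 2 weeks. Its level was 66.9, 46.7 and 48.9 CPM in CKp25, against 31.9, 19.4 and 10.2 CPM in CK, with no overlap. At 6 weeks it was 43.4, 18.4 and 65.3 CPM in CKp25, against 23.2, 10.7 and 53.1 CPM in CK, and the groups overlapped. The fitted log2 fold change was 1.38 ± 0.46 at 2 weeks and 0.51 ± 0.45 at 6 weeks. The 2-week value lay between 1.06 without CK_2wk_4893 and 1.88 without CK_2wk_4520. The 6-week value lay between 0.04 without CKp25_6wk_4008 and 1.30 without CK_6wk_4009, and it was 1.06 ± 0.51 with the several-alignment covariate. The difference of the effects, 6 minus 2 weeks, was -0.87 ± 0.65, and -0.28 ± 0.67 with that covariate.

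Igfbp3, the main carrier of these ligands in blood, was at 11.5, 9.27 and 10.8 CPM in CKp25 at 2 weeks, against 15.3, 11.3 and 9.35 CPM in CK. The 6-week levels of Igfbp3 were 10.2, 9.34 and 11.1 CPM in CKp25, against 12.4, 10.7 and 12.9 CPM in CK. The groups overlapped at both times, at log2 fold changes of -0.19 ± 0.18 and -0.24 ± 0.18.

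Igfbp4, a binding protein that inhibits Igf1 until it is cut, was lower in CKp25 at 2 weeks, at 26.5, 26.0 and 31.1 CPM, against 32.5, 34.8 and 42.1 CPM in CK. These ranges did not overlap, at a log2 fold change of -0.38 ± 0.16. At 6 weeks Igfbp4 was at 32.0, 32.7 and 43.3 CPM in CKp25, against 26.9, 30.3 and 41.2 CPM in CK, which overlapped (0.13 ± 0.16). The CKp25 effect at 6 weeks minus that at 2 weeks was 0.51 ± 0.22.

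Igfbp6, which prefers Igf2 to Igf1, was at 5.83, 10.6 and 8.01 CPM in CKp25 at 2 weeks, against 5.70, 9.82 and 7.52 CPM in CK, with overlap (0.08 ± 0.27). At 6 weeks it was at 9.40, 9.50 and 9.09 CPM in CKp25, against 8.34, 3.84 and 7.33 CPM in CK, with no overlap. The 6-week log2 fold change was 0.51 ± 0.27, and it was 0.25 without CK_6wk_3938, the lowest library. With the several-alignment covariate, which did not overlap between genotypes at 6 weeks, it was 0.04 ± 0.29.

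Igfbp7, a related protein of low affinity for the ligands, is made largely by blood vessels in the brain. At 2 weeks it was at 14.4, 12.4 and 15.0 CPM in CKp25, against 14.1, 12.5 and 14.4 CPM in CK. The 6-week levels of Igfbp7 were 23.4, 10.8 and 22.4 CPM in CKp25, against 10.6, 9.10 and 13.4 CPM in CK. CKp25_6wk_3940 lay among the CK libraries and the other 2 CKp25 libraries lay above them. Of that group CKp25_6wk_3940 was also lowest in the sum of 12 choroid plexus genes, at 18.8 CPM. The parts of blood vessels and choroid plexus in the Igfbp7 level were not tested. The log2 fold change was 0.03 ± 0.23 at 2 weeks and 0.75 ± 0.23 at 6 weeks. The CKp25 effect at 6 weeks minus that at 2 weeks was 0.71 ± 0.33, and 0.99 without CKp25_6wk_3940.

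CPM ranges of CKp25 and CK did not overlap for 4 of the 9 genes at 2 weeks and for 3 at 6 weeks, against 36.2% and 45.2% of all genes tested. At 2 weeks 3 of the 4 were higher in CKp25, and at 6 weeks all 3 were, against 18.4% of all genes higher and 17.8% lower without overlap at 2 weeks and 23.6% and 21.6% at 6 weeks. The median log2 fold change over the 9 genes was 0.08 at 2 weeks and 0.51 at 6 weeks, and over all genes it was -0.01 and 0.00. Between 6 and 2 weeks within CKp25, 3 of the 9 genes (Igf1, Igf1r and Igfbp5) were called, all higher, against 11.7% of all genes, 6.12% higher and 5.53% lower. This count is not independent of the choice of the family. Within CK, 0 of the 9 and 0% of all genes were called by edgeR, DESeq2 or limma-voom, while 560, 260 and 497 genes had an unadjusted p under 0.05.

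**Figure D2:**
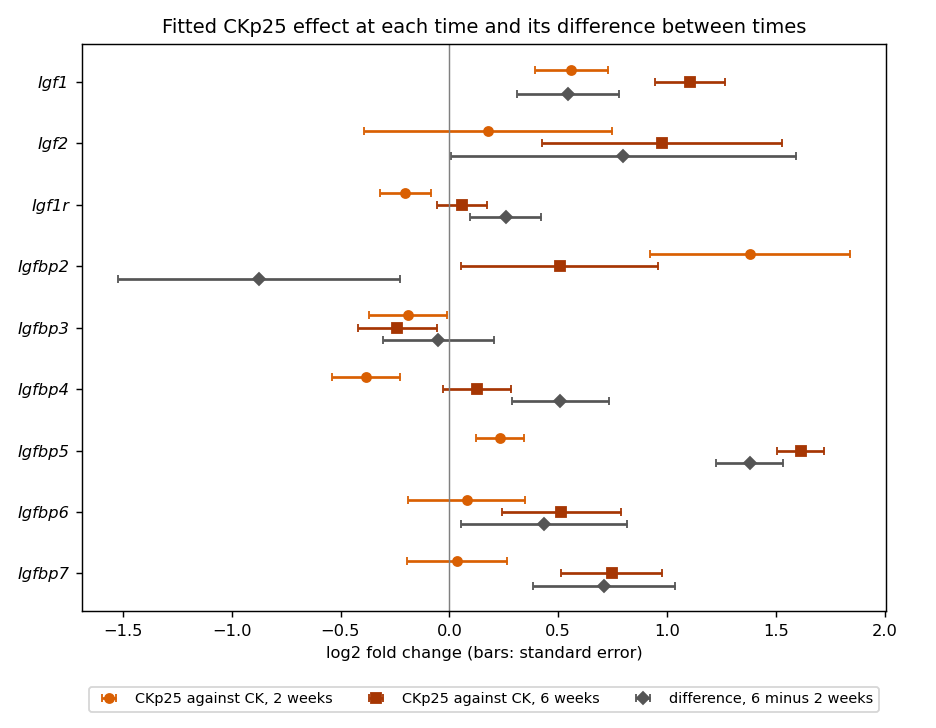
Fitted log2 fold change of CKp25 against CK at 2 weeks and at 6 weeks, and the difference of the effects, for each gene (bars show the standard error). The difference for Igfbp5 was 1.38 ± 0.15, and that for Igfbp2 was the only 1 below -0.5.

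Igf2, Igfbp2 and Igfbp3 followed the choroid plexus genes from library to library. In each of the 4 groups, the 3 libraries stood in the same order for each of these genes as for the choroid plexus sum, which was so for 0.436% of all genes tested. Igfbp7 stood in that order in 1 of 4 groups and shared the lowest library in 3 of 4. At 2 weeks the sum was 1231, 26.5 and 356 CPM in CKp25_2wk_4518, CKp25_2wk_4890 and CKp25_2wk_4894. It was 1022, 32.3 and 20.3 CPM in CK_2wk_4520, CK_2wk_4891 and CK_2wk_4893. At 6 weeks it was 1208, 18.8 and 2126 CPM in CKp25_6wk_3937, CKp25_6wk_3940 and CKp25_6wk_4008, and 690, 40.1 and 2557 CPM in CK_6wk_3936, CK_6wk_3938 and CK_6wk_4009. None of the 12 choroid plexus genes was called between genotypes at either time, and none was at 0 in all libraries. As the libraries fall into 2 sets, no correlation over all 12 is given for this relation. The order was compared with 12 marker lists. For Igf2, Igfbp2 and Igfbp3 it was also that of the meningeal fibroblast sum in 3 of 4 groups. It differed in CKp25 at 2 weeks, where that sum was 130, 164 and 139 CPM in CKp25_2wk_4518, CKp25_2wk_4890 and CKp25_2wk_4894. At 6 weeks the meningeal fibroblast sum was 175 to 336 CPM in CKp25 and 76.5 to 119 CPM in CK. Of the 12 genes in it, 11 were called higher at 6 weeks and 0 at 2 weeks, against 18.1% and 11.6% of all genes tested. The parts of the choroid plexus and the meninges in these levels were not told apart by a test.

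**Figure D3:**
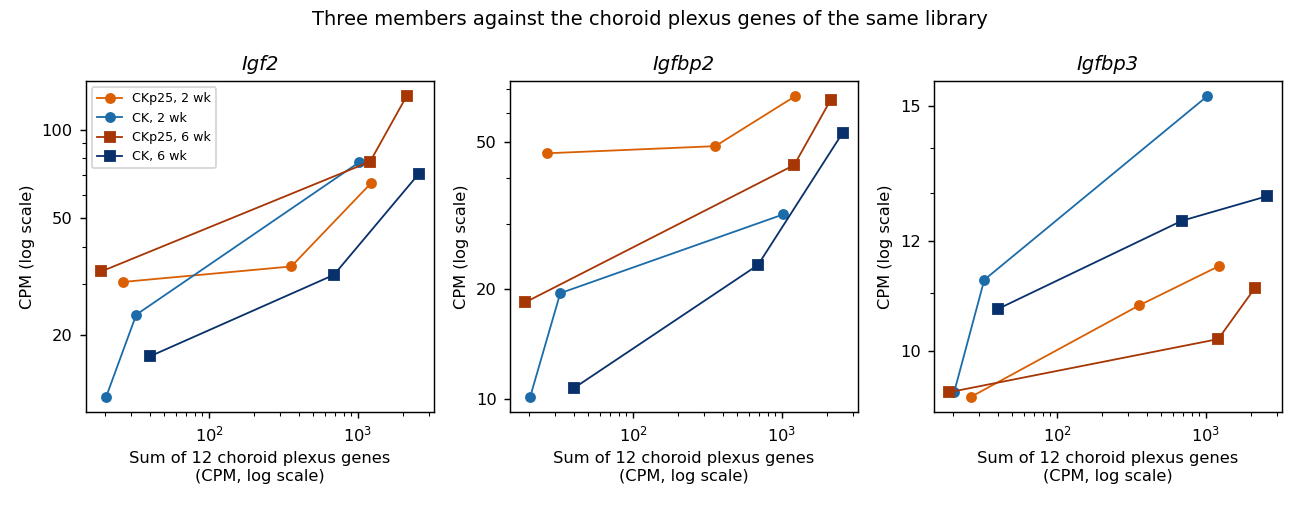
Level of Igf2, Igfbp2 and Igfbp3 (CPM, log axis) against the sum of 12 choroid plexus genes (CPM, log axis), with lines joining the 3 libraries of a group. Each line climbs from left to right, and Igfbp2 in CKp25 at 2 weeks lies above the other groups at low choroid plexus sums.

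The fit was repeated with the choroid plexus level as a covariate, which narrowed the errors of the genes that follow it. The log2 fold change of Igf2 at 6 weeks was then 0.93 ± 0.19, where it was 0.98 ± 0.55 without the covariate. At 2 weeks it was -0.05 ± 0.20. Igfbp2 was at 1.17 ± 0.21 at 2 weeks and 0.48 ± 0.20 at 6 weeks. Igfbp7 was at 0.71 ± 0.17 at 6 weeks, where it was 0.75 ± 0.23 without the covariate. Igf1 (1.10 ± 0.16) and Igfbp5 (1.61 ± 0.11) at 6 weeks were as large with the covariate as without it. Within CKp25, the change of Igfbp2 at 6 against 2 weeks was then -0.76 ± 0.19 (adjusted p = 0.0138 by edgeR's quasi-likelihood test). Without the covariate it was -0.37 and not called (adjusted p = 0.634 by the same test). With the several-alignment covariate it was -0.12 ± 0.40 and not called. These p-values rest on CKp25 values used in choosing the family and are no separate support. A batch common to a time cannot be told apart from such a change.

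**Figure D4:**
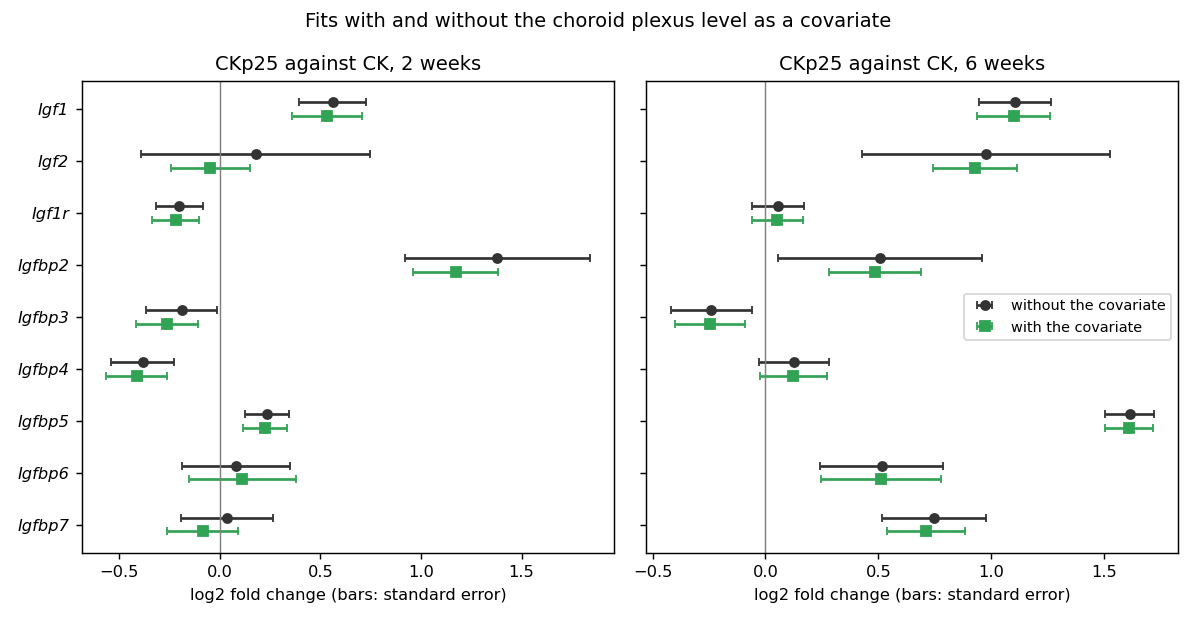
Log2 fold change of CKp25 against CK with its standard error, fitted without (dark circles) and with (green squares) the choroid plexus level as a covariate, at 2 weeks on the left and 6 weeks on the right. The error of Igf2 at 6 weeks was 0.55 without the covariate and 0.19 with it.

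For each of the 9 genes, the genes most alike were sought by Pearson's r of deviations from the group means of log2 CPM over 12 libraries, among 11649 named genes with a mean of at least 5 CPM. For Igf2 the top 3 were Kcnj13, itself 1 of the 12 choroid plexus genes, Slc2a12 and Rgs9. For Igfbp2 they were Angptl2, Rgs9 and Sppl2a, and for Igfbp3 the top gene was Samd9l. No r is given for these 3 genes, which follow the choroid plexus sum, since the libraries fall into 2 sets by it. For Igfbp5 they were Itga1, an integrin subunit (0.94), Efcab14 (0.94) and Lcp1, an actin-bundling protein of white blood cells (0.93). For Igf1 they were the interferon-induced Oas2 (0.94), the deacetylase Sirt7 (0.94) and Gm17132 (0.93). The top genes were Mbtps1 (0.96) for Igf1r, Arsk (0.92) for Igfbp4, Usp5 (0.98) for Igfbp6 and Shmt2 (0.93) for Igfbp7. These values describe libraries that share depth and choroid plexus content and carry no test. Each is among the highest of 11649 candidates over 12 libraries. How high r would reach among that many unrelated genes was not examined.

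Beyond these 9 genes, 84 other genes of the pathway were examined, of which 63 passed the filter. At 2 weeks 9 were higher in CKp25 and 3 lower, against 11.6% and 7.99% of all genes tested (19.6% in either direction). At 6 weeks 16 were higher and 13 lower, against 18.1% and 15.2% (33.3% in either direction). The same shares of all genes stand beside the counts of each pathway list below. The median log2 fold change of the 63 genes was 0.02 and 0.03. For the difference between times, 0 of the 63 were called by edgeR's quasi-likelihood test, against 0.553% of all genes tested. The other receptors, Igf2r, which clears Igf2 from the cell surface, and Insr, the insulin receptor, were not called at either time. Igf2r averaged 90.7 ± 8.4 CPM in CKp25 and 102 ± 2.3 CPM in CK at 6 weeks (SD, n = 3 each), and Insr averaged 89.7 ± 3.4 CPM in CKp25 and 84.7 ± 0.80 CPM in CK. Of the 84 genes, Igfbp1, Igfals, Ins1, Ins2, Gh and all 3 Igf2 messenger RNA binding proteins were among the 21 that did not pass the filter. With CK_2wk_4520 and CKp25_2wk_4518 both left out, 6 pathway genes were called at 2 weeks, and the calls of Mmp2 (1.32), Shc1 (0.50), Shc3 (-0.37), Inppl1 (0.46) and Akt2 (0.34) were among those lost. With the share of reads with several alignments as a covariate, 9 of the 29 calls at 6 weeks were lost, those of Pappa (0.70), Eif4ebp1 (1.05), Foxo6 (-0.68), Socs1 (2.01), Ptpn11 (0.23), Irs2 (-0.19), Akt2 (0.24), Gsk3b (-0.11) and Rptor (-0.16). As this share did not overlap between genotypes at 6 weeks, these losses cannot be assigned to it rather than to genotype.

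Of 9 tested proteases that cut binding proteins and their regulators, 3 were higher at 2 weeks, 4 at 6 weeks and 0 lower. Ctsd, a lysosomal protease that also stands in the list of activated microglia genes, rose at both times, by 2.44 ± 0.17 on the log2 scale at 2 weeks (adjusted p = 1.41e-08 by edgeR's quasi-likelihood test) and 2.24 ± 0.17 at 6 weeks. Mmp2, a matrix protease, rose by 1.35 ± 0.35 and 1.54 ± 0.35. Its 2-week call was lost without CK_2wk_4891 (1.26). Timp1, an inhibitor of such proteases, had 34, 25 and 19 counts in CKp25 and 0 in each CK library at 2 weeks, and 13, 11 and 11 counts in CKp25 and 1, 0 and 1 in CK at 6 weeks. Pappa, which cuts Igfbp4 and Igfbp5, averaged 3.14 ± 0.58 CPM in CKp25 and 3.33 ± 0.52 CPM in CK at 2 weeks, and rose by 1.00 ± 0.31 at 6 weeks (adjusted p = 0.0194 by the same test). That call was lost without CK_6wk_3938 (0.92), CK_6wk_4009 (0.70) or CKp25_6wk_3937 (0.85).

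Among 6 tested genes with a binding protein domain, Nov fell by 0.46 ± 0.11 on the log2 scale at 2 weeks and by 0.44 ± 0.12 at 6 weeks. Its 2-week call was lost without CKp25_2wk_4894 (-0.37). Crim1 fell at 6 weeks (-0.38 ± 0.08). Ctgf, a matrix-bound protein, rose at 6 weeks by 0.86 ± 0.19 (adjusted p = 0.00201 by edgeR's quasi-likelihood test), and was also higher at 6 than at 2 weeks within CKp25 (0.95 ± 0.19).

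Of 16 receptor adaptors and PI3-kinase subunits, 2 were higher and 1 lower at 2 weeks, and 3 were higher and 4 lower at 6 weeks. Of all genes tested, 19.6% and 33.3% were called in either direction at these times. Shc1, an adaptor that links receptors to Ras, rose by 0.58 ± 0.14 on the log2 scale at 2 weeks and 1.02 ± 0.14 at 6 weeks, and its neuronal relative Shc3 fell by 0.37 ± 0.10 and 0.42 ± 0.10. The 2-week calls were lost for Shc1 without CK_2wk_4891 (0.48) and for Shc3 without CKp25_2wk_4890 (-0.30). Gab1, a docking protein, rose by 0.64 ± 0.12 at 6 weeks. Sh2b2 rose at 2 weeks by 0.87 ± 0.26, a call lost without CK_2wk_4891 (0.78), CK_2wk_4893 (0.72), CKp25_2wk_4518 (0.76) or CKp25_2wk_4894 (0.79).

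Of 18 genes of Akt, mTOR and FoxO signalling, 1 was higher and 1 lower at 2 weeks, and 2 were higher and 6 lower at 6 weeks. Tsc2, a brake on mTOR, fell by 0.56 ± 0.09 on the log2 scale at 6 weeks (adjusted p = 9.07e-05 by edgeR's quasi-likelihood test). Foxo6, a FoxO factor of neurons, fell by 0.73 ± 0.23, a call lost without CK_6wk_3936 (-0.70), CK_6wk_3938 (-0.57), CKp25_6wk_3937 (-0.62) or CKp25_6wk_4008 (-0.66). Eif4ebp1, a repressor of translation, rose by 1.45 ± 0.43, a call lost without CK_6wk_3936 (1.24) or CKp25_6wk_3937 (1.32). At 2 weeks Akt2 rose by 0.27 ± 0.09, a call that held only without CK_6wk_4009, CKp25_2wk_4518, CKp25_6wk_3937 or CKp25_6wk_3940, and the other 8 fits without a library gave 0.22 to 0.30. Pyramidal neuron genes summed to 1254 to 1703 CPM in CKp25 and 2477 to 2875 CPM in CK at 6 weeks, with 6 of 7 tested called lower, and their part in the lower genes was not tested.

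Of 8 feedback regulators and phosphatases, 3 were higher and 0 lower at 2 weeks, and 4 were higher and 1 lower at 6 weeks. Socs3, a suppressor of cytokine signalling, rose by 2.13 ± 0.39 on the log2 scale at 2 weeks and 2.51 ± 0.43 at 6 weeks (adjusted p = 0.00026 by edgeR's quasi-likelihood test). Socs1 rose by 2.73 ± 0.59 and 1.84 ± 0.67, and its 6-week call held only without CK_2wk_4520, CK_6wk_4009 or CKp25_6wk_4008, while the other 9 fits without a library gave 1.31 to 1.83. Socs2, which limits growth hormone signalling, fell by 0.58 ± 0.12 at 6 weeks. Inppl1, a lipid phosphatase, rose by 0.46 ± 0.13 and 0.77 ± 0.12, and its 2-week call was lost without CK_2wk_4891 (0.39) or CKp25_2wk_4518 (0.43). Ptpn11 rose by 0.21 ± 0.07 at 6 weeks, a call lost at 0.16 to 0.21 without CK_6wk_3938, CK_6wk_4009, CKp25_2wk_4894, CKp25_6wk_3937 or CKp25_6wk_4008.

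Of 4 tested genes of the growth hormone axis, 2 were higher at 6 weeks and 0 at 2 weeks. Stat5a, a transcription factor that acts below the growth hormone receptor, rose by 1.42 ± 0.30 on the log2 scale (adjusted p = 0.0014 by edgeR's quasi-likelihood test), and its paralog Stat5b by 0.71 ± 0.10. The receptor gene Ghr averaged 12.3 ± 2.4 CPM in CKp25 and 10.2 ± 1.5 CPM in CK at 6 weeks (SD, n = 3 each) and was not called.

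**Figure D5:**
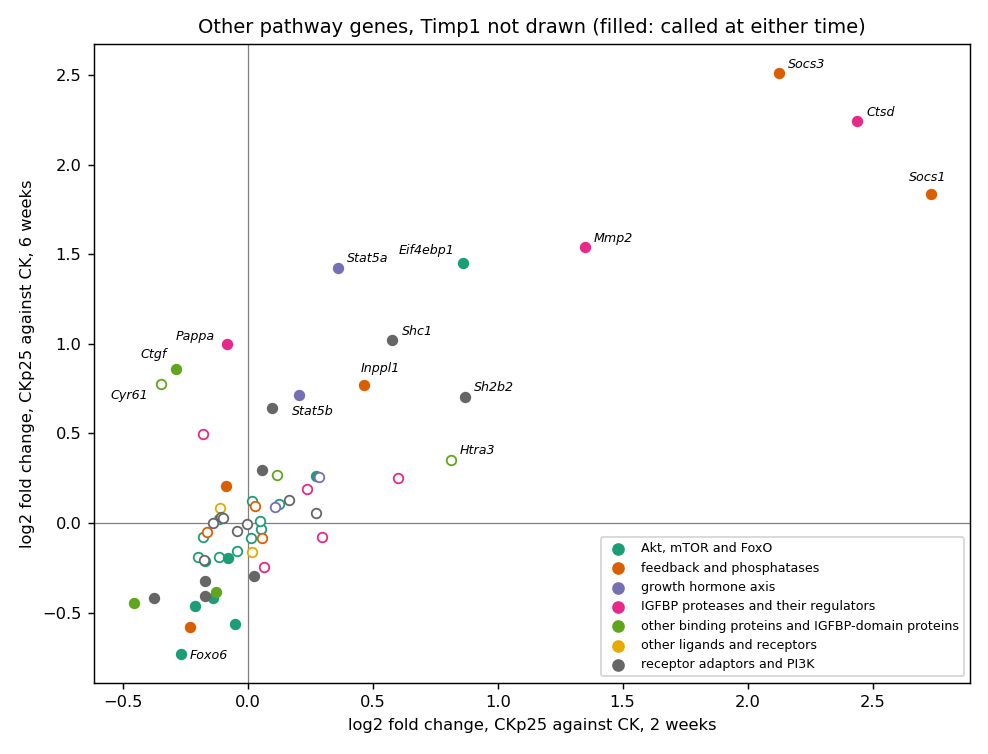
Log2 fold change of CKp25 against CK at 2 weeks (horizontal) and 6 weeks (vertical) for the tested pathway genes other than Timp1, which had 0 counts in CK at 2 weeks. Colours mark the role, filled points are genes called at either time, and Socs3 and Ctsd lie far up and to the right.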

How the data were processed

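RNA from hippocampus was sequenced as 12 libraries, and the authors deposited 1 table of raw counts by Ensembl gene ID. The submitters' processing notes name HTSeq 0.6.1, Bowtie, Picard and MACS2, and the builds NCBIM37 and mm9. Whether counting used strand is not given in the sources cited, so Igf2 and Igf1 may share reads with antisense genes, and Igfbp7 with Polr2b, which overlaps it. Reads with several alignments (6.81 to 14.3% of a library) were set aside from the gene counts. The table's 5 entries that name no gene, among them reads outside features (38.1 to 46.9%), unaligned reads (6.13 to 11.1%) and ambiguous reads (0.137 to 0.165%), were left out of library sizes and tests. Symbols came from the ID table supplied, which named 86.6% of genes, and 6 pathway genes matched by synonym. The 28 ChIP peak lists were not used here, as no annotation of their build was at hand.

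Counts were fitted in R 4.3.3 with edgeR 4.0.16 quasi-likelihood models (filterByExpr, TMM, 4 group means over 12 libraries). Adjusted p-values are Benjamini-Hochberg values over 14457 genes, and a gene under 0.05 is called. For the 9 members, genotype effects and their difference between times are given without a p. SE is the log2 fold change divided by the root of F. Steps were tested on simulated data. The genes examined, the pathway and marker lists and the tests were chosen with earlier results of these data known. Named genes were the 9 members, up to 3 called genes of largest change per pathway list (all, where 5 or fewer were called), the 3 genes most alike, and genomic neighbours, and 1 gene that this rule names is not reported here. Motifs and printed windows were picked after their sequences were seen. Alternatives were DESeq2 1.42.0, limma-voom (3.58.1), DESeq2 size factors, no filter, only the groups compared, 2 covariates, leaving out libraries and, chosen after seeing the data, a block for runs of library numbers. Pairs of libraries within a group had a chi-square between 1.46 and 8.55 per gene, so none was a copy.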

Additional observations from a re-analysis of the deposited data

Results flagged for a closer look

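The CKp25 effect on Igfbp5 differed between times by 1.38 on the log2 scale, 6 minus 2 weeks. It was picked out by a test of the difference itself, but that test is built from the values by which the family was chosen, so the difference is a description and supports nothing further. All 3 CKp25 libraries at 6 weeks (341 to 495 CPM) lay above those at 2 weeks (151 to 157 CPM), while the CK libraries lay at 126 to 139 CPM at 6 weeks and 122 to 141.0 CPM at 2 weeks.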

How the results depend on the processing

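No paired analysis was possible because the groups compared share no library number. Within each time the library numbers form 2 runs that each hold both genotypes, and the labels do not say what the runs are. A fit with the run as a block, chosen after seeing the data, gave 305 calls for the difference between times and 30 pathway calls at 6 weeks, lost that of Socs1 (1.83, adjusted p = 0.0536), and gave no value between times, as runs lie within times. The restriction to the groups compared could not be applied to the difference between times, which uses all groups. Genes called for that difference numbered 80, and 219 with DESeq2, 693 with no filter on low counts, 295 with the choroid plexus covariate, 301 with the several-alignment covariate, and 24 to 204 when a library was left out (24 without CKp25_2wk_4894, 204 without CKp25_6wk_3940). Within CK the 0 calls became 130 with no filter and 26 without both CK_2wk_4520 and CKp25_2wk_4518. Pathway genes called at 2 weeks numbered 12, and 6 without that pair and 6 to 12 when a library was left out (6 without CK_2wk_4891). Leaving out a library gave 1806 to 3056 calls at 2 weeks (1806 without CKp25_2wk_4894) and 839 to 2029 calls between times within CKp25 (839 without CKp25_6wk_3937, 974 without CKp25_2wk_4894), where all libraries gave 2833 and 1685.

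The Igfbp5 difference between times was 1.33 to 1.54 over the 8 alternatives that kept all groups and 1.21 to 1.49 when a library was left out. Some changes between times within CKp25 that were not called became so: Igf2 (0.86), Igfbp2 (-0.38) and Igfbp4 (0.37) with no filter, Igfbp2 (-0.76) with the choroid plexus covariate, Igf2 (1.44) with the several-alignment covariate and Igfbp7 (0.69) without CKp25_6wk_3940. These calls are not independent of the choice of the family. Some values changed sign. Without CK_2wk_4520 and CKp25_2wk_4518, the log2 change between times within CKp25 was 0.0027 for Igfbp3 and -0.0030 for Igfbp6. With the choroid plexus covariate it was -0.048 for Igf2 and -0.086 for Igfbp7 at 2 weeks, and 0.016 for the Igfbp3 difference. With the several-alignment covariate it was 0.015 for Igfbp3 and -0.0082 for Igfbp4 at 6 weeks, 0.23 and -0.11 for the differences of Igfbp3 and Igfbp6, and 0.063 for Igfbp3 within CKp25. Leaving out a library gave the following ranges. At 2 weeks they were -0.26 to 1.29 for Igf2, -0.34 to 0.035 for Igfbp3, -0.15 to 0.29 for Igfbp6 and -0.028 to 0.10 for Igfbp7. At 6 weeks they were -0.055 to 0.14 for Igf1r and -0.029 to 0.33 for Igfbp4. For the difference they were -0.32 to 1.52 for Igf2 and -0.28 to 0.10 for Igfbp3, and within CKp25 -0.13 to 0.0029 for Igfbp3 and -0.0034 to 0.44 for Igfbp6. The causes were not tested. Of 29 pathway calls at 6 weeks, 20 held whichever library was left out, and of 12 at 2 weeks, 4 did. Igf1, Igfbp3, Igfbp6 and Igfbp7 rest on under 130 reads a library, which limits their precision.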

Other observations

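Genes next to these 9 in RefSeq build GRCm38.p6 were looked up, and their values are given with no explanation. Tns3, which lies beside Igfbp3, was called higher in CKp25 at both times (log2 fold change 0.45 ± 0.11 and 0.76 ± 0.10), and Top2a, a gene of dividing cells beside Igfbp4, was called higher by 4.66 ± 0.28 and 2.86 ± 0.34. Spryd3, beside Igfbp6, was called lower at both times (-0.29 ± 0.09 and -0.37 ± 0.09). Adgrl3, beside Igfbp7, was also called lower at both (-0.28 ± 0.07 and -0.21 ± 0.07). Igfbp1, on the other side of Igfbp3, had 1 count in all 12 libraries. Ins2, beside Igf2, had 9 counts, and H19, the imprinted neighbour of Igf2, had 29. All of the H19 counts were in CKp25, at 1.32 ± 0.31 CPM at 2 weeks and 0.28 ± 0.25 CPM at 6 weeks (SD, n = 3 each). In CK it was at 0 at both times. H19 did not pass the filter and was not tested. Igf2os had 12 counts and Igf1os 1, against 61 to 716 counts a library for Igf2 and 28 to 93 for Igf1. Polr2b, which overlaps Igfbp7, was called at neither time. Nor were Noa1, beside Igfbp7, Synm, beside Igf1r, and Rpl37a, beside Igfbp2. Of all genes tested, 19.6% were called at 2 weeks and 33.3% at 6 weeks in either direction.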
